A study of Mus musculus with 8 samples.

Results

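Sperm of mice raised on a low protein diet was set against sperm of mice on a control diet. The comparison held 5 of the series' 8 arrays, chosen by tissue and diet in the sample labels: 3 sperm samples of the control diet and 2 of the low protein diet. All came from C57/Bl6 mice with no transgene named, as total RNA of sperm collected from the caudal epididymis. Males of both groups were kept on their diet to an age of 9 to 12 weeks and were then housed with females for a short mating period. The labels do not say how many animals gave each sample or that the samples came from separate animals, so p-values reflect no more than the spread of these samples, possibly a technical one. The other 3 arrays were sperm of a caloric restriction diet and epididymis of either diet. The question was whether the father's protein intake relates to the RNA carried by sperm.

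Mature sperm make little or no new RNA. Most of the RNA they carry was made in the testis by spermatids, which build the tail, the acrosome (the enzyme-filled cap of the head) and the protamine-packed nucleus. The tissue through which sperm pass has its own RNA, from an epithelium that secretes proteins onto the sperm, from smooth muscle and from connective tissue. Sperm are collected by letting them swim out of the punctured tissue. RNA from those cells can therefore enter a preparation. The labels state a purity above 99.5% by microscopy and the rejection by PCR of preparations with detectable Actb (cytoplasmic actin) or Myh11 (smooth muscle myosin).

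The values are log2 intensities of Affymetrix probe sets, so that a difference of 1 is a doubling of the signal. Markers of the label were bright: Odf1, of the outer dense fibres of the tail, read 13.24, 13.00 and 12.92 on the control arrays and 13.36 and 13.57 on the low protein arrays. Actb and Myh11 also read above the array median, 6.08 to 6.17 over the arrays, on every sperm array. Actb read 11.43, 11.61 and 11.47 in controls and 11.04 and 10.49 in low protein sperm, a difference of -0.73 ± 0.20 (standard error of the fit, adjusted p = 0.115 by limma). Myh11 read 8.13, 7.98 and 7.94 in controls and 7.51 and 7.09 in low protein sperm (-0.71 ± 0.19, adjusted p = 0.103). Both low protein arrays lay below all controls for both genes.

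The 2 low protein arrays did not lie at the same distance from the controls. Over the 13587 genes tested, pairs of control arrays correlated at 0.954 to 0.976. Low protein replicate 1 correlated with the controls at 0.931 to 0.961, and low protein replicate 2 at 0.715 to 0.831. The 2 low protein arrays correlated with each other at 0.862. The standard deviation of a gene's difference from the control mean was 0.29 on replicate 1 and 0.66 on replicate 2. On replicate 1 there were 28 genes at least 1 from the control mean, all above it. On replicate 2 there were 1869, of which 580 lay above and 1289 below. The arrays are therefore given separately below for many lists and genes. Where no array is named, a gene's difference is that of the mean of both low protein arrays. Such a difference can rest mostly on replicate 2.

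No gene passed an adjusted p of 0.05 by limma (0% of 13587), and the smallest adjusted p was 0.0847. At an unadjusted p of 0.05, 1622 genes were higher (11.9%) and 1784 lower (13.1%) in low protein sperm. At an adjusted p of 0.10, 559 genes were higher (4.11%) and 33 were lower (0.243%). Their median differences were 0.91 and -0.84, and in none of the 592 did the groups overlap. That looser count moved with the arrays used: it was 0 without low protein replicate 2 and 0 without any single control, and 6386 without low protein replicate 1, where 5155 genes also passed 0.05 on the strength of replicate 2 alone. With 2 arrays against 3, a permutation test of a single gene cannot go below an exact two-sided p of 0.2. Statements below are therefore of values and of overlap between the groups.

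Position against the controls gives the background for the lists that follow. Both low protein arrays lay above all 3 controls for 2550 genes (18.8%) and below all 3 for 3039 (22.4%). Replicate 1 alone lay above the controls for 22.7% and below for 36.9% of genes, and replicate 2 for 39.7% and 42.5%. The arrays lay on opposite sides of the control range for 1409 genes. In 69.9% of genes the differences from the control mean had the same sign on both arrays. The median difference over all genes was -0.057.

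**Figure D1:**
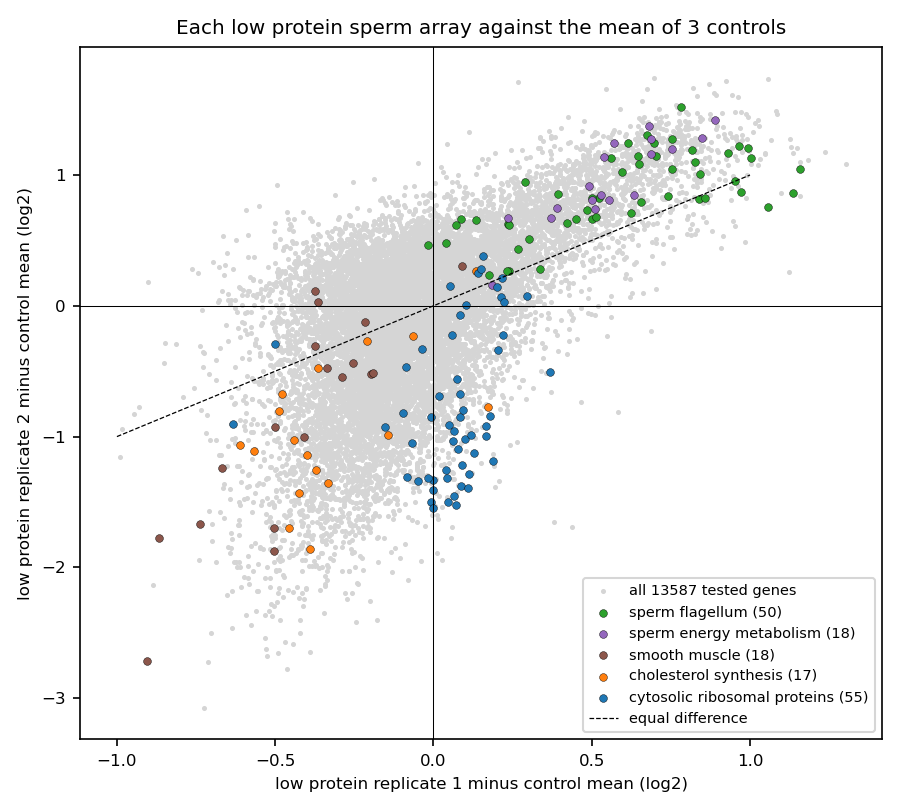
Difference from the mean of the 3 control arrays (log2) on low protein replicate 1 (x axis) and on replicate 2 (y axis). Each point is a gene; grey points are all 13587 tested genes, coloured points members of 5 lists, and the dashed line marks equal differences. Flagellum and energy metabolism genes lie at upper right, smooth muscle and cholesterol synthesis genes mostly at lower left, and ribosomal protein genes near 0 on replicate 1 and mostly below 0 on replicate 2.

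The 12 higher genes of smallest p, none past the adjusted threshold, included several known from sperm or cilia. Lrrc9 read 6.79, 6.71 and 6.63 in controls and 7.76 and 7.88 in low protein sperm, a difference of 1.11 ± 0.16. Capza3, the germ cell form of the actin capping protein, read 5.81, 5.79 and 5.92 against 6.85 and 7.17 (1.17 ± 0.17). Its controls lay just above the filter level of 5.69. The mean used by that filter took in the low protein arrays, so a dim gene high on them passed more readily. Fscn3, the testis form of the actin bundler fascin, read 7.06, 7.01 and 7.08 against 8.02 and 8.41 (1.16 ± 0.18). In each of these 3 genes the control arrays lay close together and both low protein arrays well above them. The other 9 were Ccdc192, Dnah7c (a dynein motor of the tail), D7Ertd443e, Rimklb (an enzyme that joins glutamate to other acids), Lrrc74a, Rbm46 (a germ cell RNA-binding protein of meiosis), Ccdc113, Lrrc6 (dynein arm assembly) and Bpifa3. Their differences ran from 1.02 for Ccdc113 to 1.23 for Bpifa3, and each of the 12 had an adjusted p of 0.0847 by limma.

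The 12 lower genes of smallest p held several muscle and epithelial genes. Csrp1, a LIM protein of smooth muscle, read 9.41, 9.60 and 9.47 in controls and 8.63 and 7.72 in low protein sperm (-1.32 ± 0.26). Clu, the secreted chaperone clusterin, read 10.95, 11.15 and 10.91 against 10.30 and 9.97 (-0.87 ± 0.18). Slc23a1, a vitamin C transporter, read 7.37, 7.43 and 7.46 against 6.70 and 6.45 (-0.84 ± 0.16). In each of them the control arrays were close together and both low protein arrays were below, replicate 2 the further. Tagln (transgelin of smooth muscle), Tpm4 (a tropomyosin), Scamp5, Cd1d1 (which presents lipids to T cells), Abcc3 (an export pump), Them4, Cpox (haem synthesis), Lce6a and Sfrp1 (a secreted Wnt inhibitor) made up the 12. Their differences ran from -0.68 for Tpm4 to -1.07 for Cd1d1, and their adjusted p from 0.0847 to 0.0869.

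**Figure D2:**
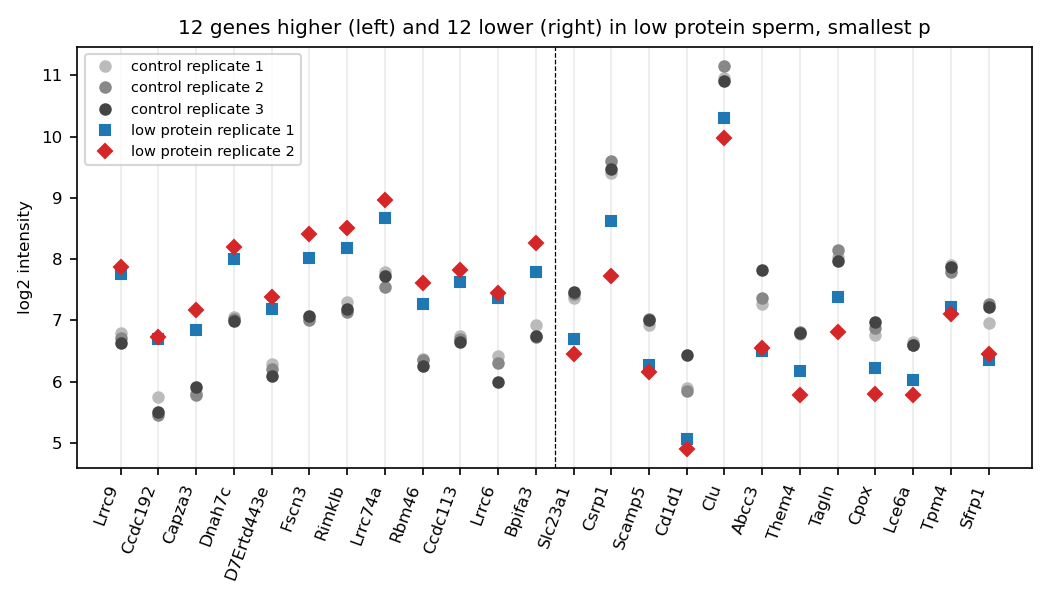
Log2 intensity of the 12 higher (left of the dashed line) and 12 lower (right) genes of smallest p on each of the 5 arrays; grey circles are controls, the blue square is low protein replicate 1 and the red diamond replicate 2. No low protein point overlaps the controls of its gene, although no gene passed an adjusted p of 0.05.

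Genes of the sperm tail were higher in low protein sperm as a group. Of 50 flagellum genes tested (54 listed), 44 lay above all controls on both arrays and none below, against 18.8% and 22.4% of all genes. Their median difference was 0.80, with 0.62 on replicate 1 and 0.83 on replicate 2, and 27 of them had an adjusted p under 0.10 (4.11% of all genes were higher at that level). No gene of any list stayed under 0.10 without low protein replicate 2, without any single control, or with the lowest 50% of genes left out. Odf4, of the outer dense fibres, read 7.02, 6.76 and 6.75 in controls against 7.84 and 7.97 (1.06 ± 0.17). Akap4, the main anchoring protein of the fibrous sheath (named after its values were seen), read 8.59, 8.43 and 8.60 against 9.24 and 9.78 (0.97). Enkur, which tethers calcium channels and signalling proteins, differed by 0.95, and Iqub and Cfap69 of the axoneme by 1.10 and 1.09. Odf1 differed by 0.41, with both arrays above the controls. The lowest of the 50 differences was that of Cfap44, of the axoneme, at 0.21.

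The axonemal dyneins, the motors that bend the tail, also lay mostly above the controls. Of 22 tested (26 listed), 20 lay above all controls on both arrays, with a median of 0.68. Dnah8, an outer arm heavy chain of sperm, read 7.83, 7.83 and 7.54 in controls and 8.58 and 8.84 in low protein sperm (0.98 ± 0.18). Dnah6 differed by 0.86 and Dnah7c by 1.08. The related genes Dnah7a, Dnah7b and Dnah7c may share probe signal, and the 2 probe sets of Dnah7b gave 0.25 and 1.20. Dnah11, a heavy chain known from airway cilia and named after its values were seen, lay below the controls on both arrays (-0.22).

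Acrosome and egg-binding genes were less uniform. Of 26 tested (35 listed, 8 under the filter), 19 lay above all controls on both arrays and 1 below, with a median of 0.55. Spaca7, an acrosomal protein, read 5.94, 5.85 and 5.97 in controls and 6.86 and 6.82 in low protein sperm (0.92 ± 0.15). Acrv1, of the acrosomal matrix, differed by 0.83 ± 0.17, Dpy19l2, which attaches the acrosome to the nucleus, by 0.79 ± 0.16, and Spaca1 by 0.80 ± 0.17. On these 4 genes both low protein arrays lay above every control, with replicate 2 the higher in 1 of the 4. Of genes named after their values were seen, Izumo1, which binds the egg receptor, differed by 0.72, Acr (acrosin) by 0.28, and Izumo4 by -0.45 with both arrays below the controls. All 7 tested sperm ADAM genes (18 listed, 10 under the filter), surface proteins needed for passage to the egg, lay above the controls on both arrays (median 0.88). The filter's mean took in the low protein arrays, so a dim gene high on them passed more readily. Adam3 read 7.85, 7.41 and 7.60 in controls against 8.53 and 8.66 (0.97 ± 0.18), and Adam2, Adam32 and Adam5 differed by 0.94, 0.95 and 0.88.

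Signalling and ion transport genes that prepare sperm for fertilization lay above the controls on both arrays for 13 of 14 tested (25 listed), with a median of 0.84. Adcy10, the bicarbonate-sensing adenylyl cyclase, read 7.22, 7.10 and 6.91 in controls and 7.96 and 8.51 in low protein sperm (1.15 ± 0.21). Plcz1, the phospholipase that activates the egg, read 7.04, 6.87 and 7.22 against 8.00 and 8.31 (1.11 ± 0.18). Kcnu1, the sperm potassium channel, differed by 0.94 ± 0.15 and Atp1a4, the sperm sodium pump, by 0.88 ± 0.17. The exception, named after its values were seen, was the proton channel gene Hvcn1 (-0.33), also expressed in leukocytes, which lay below the controls on both arrays. Among kinases of the testis 14 of 17 lay above on both arrays and none below (median 0.67). Tssk6, a kinase needed for chromatin packing in spermatids, read 8.49, 8.12 and 8.14 against 9.09 and 9.66 (1.13 ± 0.22), and Stk33, Mak and Tssk2 differed by 1.17, 0.83 and 1.02.

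Sperm chromatin genes replace histones with transition proteins and then protamines. Of 16 tested, 15 lay above all controls on both arrays, with medians of 0.53 on replicate 1 and 0.96 on replicate 2. The list is wider than histone replacement: it also holds Papolb and Tdrd6, the latter counted again among the piRNA pathway genes below. The 4 of smallest p were Tdrd6 (0.94 ± 0.18), a scaffold of the germ cell RNA body, Brdt (0.77 ± 0.16), a reader of acetylated histones, Papolb (0.64 ± 0.16), a testis poly(A) polymerase, and Hils1 (0.82 ± 0.21), a spermatid linker histone. The protamines and transition proteins were looked at after their values were seen. Prm1 read 10.69, 10.58 and 9.88 in controls and 10.79 and 11.44 in low protein sperm, and Prm2 read 12.86, 12.76 and 12.46 against 13.12 and 13.43. Tnp1 read 7.84, 7.71 and 7.10 against 8.34 and 8.74. For Prm1 replicate 1 cleared the highest control by 0.11, while for Tnp1 both arrays lay well above. Their adjusted p were 0.180 (Prm1), 0.148 (Prm2) and 0.102 (Tnp1) by limma.

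Energy genes with a germ cell form of their own lay above the controls on both arrays in 17 of 18 tested (median 0.72). Gapdhs, the glycolytic dehydrogenase bound to the fibrous sheath, read 10.10, 9.97 and 9.90 in controls and 10.68 and 11.15 in low protein sperm (0.93 ± 0.19). Oxct2a, which lets sperm use ketone bodies, read 8.49, 8.25 and 8.06 against 9.16 and 9.69 (1.16 ± 0.22). Acsbg2, an acyl-CoA synthetase of the testis, differed by 1.06 ± 0.19 and Pgam2 by 0.98 ± 0.20. The 1 gene inside the control range on both arrays, Slc2a3 (0.17), named for that position, is a glucose transporter of many cells. Of 25 genes of the sperm head and of the actin-related shell around its nucleus, 23 lay above on both arrays (median 0.78). Besides Capza3 and Fscn3 these included Sun3, of the spermatid nuclear envelope (1.17 ± 0.20), and Spata16, needed to form the acrosome (1.00 ± 0.19).

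Genes of earlier germ cell stages were split by stage. Of 17 genes of the piRNA pathway, which silences transposons with small RNAs in germ cells, 14 lay above on both arrays and none below (median 0.63). Ddx4, the germ cell RNA helicase, read 6.75, 6.51 and 6.47 in controls and 7.40 and 7.81 in low protein sperm (1.03 ± 0.19), and Mael and Rnf17 differed by 0.95 and 0.93. Of 16 meiosis genes tested (34 listed, 16 under the filter), 11 lay above and none below, with a median of 0.63. Here too the filter's mean took in the low protein arrays. Syce1, of the synaptonemal complex, differed by 1.00 ± 0.17, Syce2 by 1.15 ± 0.23, Boll by 1.23 ± 0.27 and Ybx2, which stores messenger RNA, by 0.68 ± 0.17. Spermatogonial genes, of the stem and dividing cells, stood differently: 2 of 12 lay above and 2 below, with a median of -0.07 (-0.24 on replicate 1, 0.19 on replicate 2). Zbtb16, a stem cell transcription factor, differed by -0.58 ± 0.20 and Kit, a growth factor receptor, by -0.54 ± 0.20, while Dmrt1 and Gfra1 differed by 0.36 and 0.31.

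**Figure D3:**
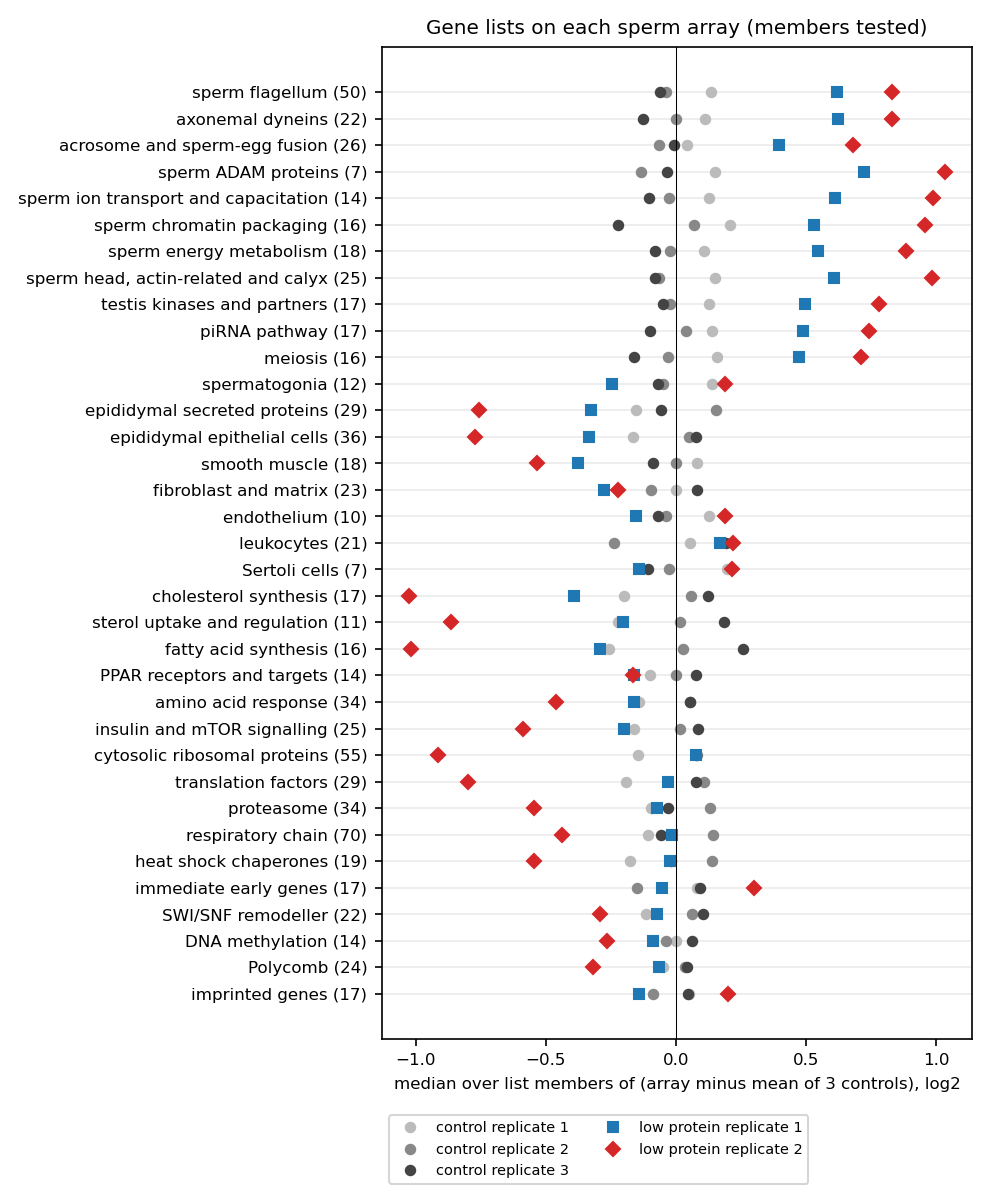
Median over the tested members of each list of the difference from the control mean (log2, x axis) on each array; rows are lists with at least 5 tested members, circles the controls, the square low protein replicate 1 and the diamond replicate 2. In the 11 lists from flagellum to meiosis both low protein arrays lie to the right of all controls; in the cholesterol synthesis, smooth muscle and epididymal epithelial lists both lie to the left; in the ribosomal protein list replicate 1 lies at 0.08 and replicate 2 at -0.91.

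Many germ cell proteins have a relative that other cells use. Of 28 such pairs listed, 18 had both genes tested. The filter's mean took in the low protein arrays, so a dim germ cell gene high on them passed more readily. Cox7b2, for example, read 5.42, 5.83 and 5.14 in controls and 6.02 and 6.27 in low protein sperm, with the filter at 5.69. The germ cell member lay above all controls on both arrays in 17 pairs, and the widely expressed member in 2 (Capza1 and Kif2a), against 18.8% of all genes. The widely expressed member lay below on both arrays in 7, against 22.4% of all genes. In all 18 pairs the germ cell member had the greater difference, on each low protein array taken alone as well. Medians for the germ cell members were 0.55 on replicate 1 and 0.85 on replicate 2, and for the others -0.04 and -1.02. The relatives therefore stood apart from the controls mainly on replicate 2, where 13 of 18 lay below, against 42.5% of all genes. On replicate 1 the count was 7 of 18, against 36.9% of all genes.

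Pgk2, the glycolytic kinase of sperm, read 10.26, 10.05 and 9.90 in controls and 10.75 and 11.45 in low protein sperm (1.03 ± 0.23). Pgk1, its form in other cells, read 8.21, 8.62 and 8.61 against 8.25 and 7.06 (-0.83 ± 0.33), so that only replicate 2 left the control range. Actl7b, an actin-like protein of spermatids, differed by 0.61 ± 0.18 and Actb by -0.73 ± 0.20. Hspa1l differed by 0.86 and Hspa8, the constitutive chaperone, by -0.98, and Clgn, the germ cell calnexin, by 0.78 against -0.99 for Canx. Ldhc, the sperm lactate dehydrogenase, read 8.51, 8.54 and 8.49 in controls against 9.04 and 9.36 (0.69 ± 0.17). Its relative Ldha read 8.79, 8.87 and 8.91 against 8.85 and 8.89, inside the control range on both arrays. Calr3, the germ cell calreticulin, was the only germ cell member inside the control range on replicate 1 (0.12), with 0.70 on replicate 2. Pairs of such close sequence as Rpl10l and Rpl10 may share probe signal.

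**Figure D4:**
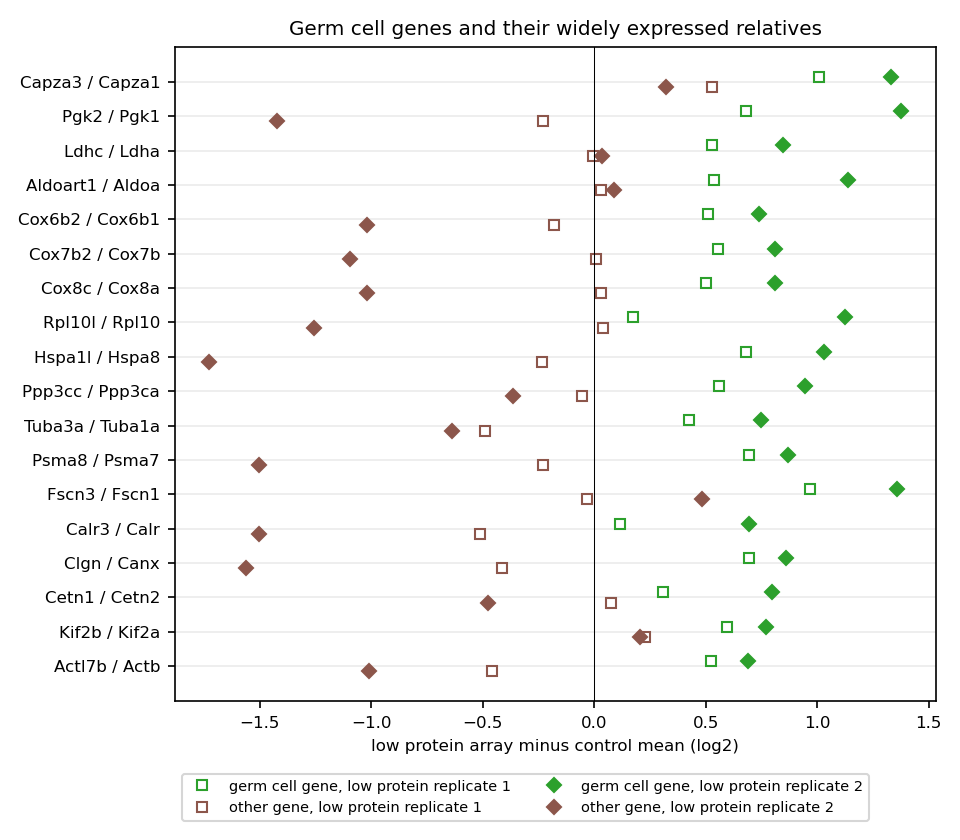
Difference from the control mean (log2, x axis) for 18 pairs of a germ cell gene (green) and its widely expressed relative (brown) on low protein replicate 1 (open squares) and replicate 2 (filled diamonds). Every green symbol lies to the right of the brown symbol of the same shape, and the brown diamonds lie below 0 in most pairs.

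Markers of the tissue around the sperm were lower on the low protein arrays. Of 18 smooth muscle genes tested, 13 lay below all controls on both arrays and none above, against 22.4% and 18.8% of all genes, with medians of -0.37 on replicate 1 and -0.53 on replicate 2. Acta2, smooth muscle actin, read 9.65, 9.81 and 9.43 in controls and 8.73 and 6.92 in low protein sperm (-1.81 ± 0.45). Myl9, a myosin light chain, differed by -1.20 ± 0.28 and Tagln by -0.95 ± 0.20. The median smooth muscle gene stood at 18.1% to 19.6% of its level in control epididymis on the control sperm arrays, at 13.0% on low protein replicate 1 and at 7.89% on replicate 2. Mean log2 intensity over the list ran from 7.54 to 7.69 in controls and was 7.21 and 6.78 in low protein sperm.

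Epididymal epithelium lay lower by similar counts. Of 36 epithelial genes, 27 lay below on both arrays (median -0.58), and the median gene stood at 53.6% to 64.4% of its epididymal level in controls and at 50.1% and 30.1% in low protein sperm. The mean over the list ran from 7.65 to 7.92 in controls and was 7.51 and 7.03. Krt19, a keratin, read 8.95, 8.76 and 8.59 in controls and 8.06 and 7.20 in low protein sperm (-1.14 ± 0.26). Car2 (0.90 ± 0.19) and Cftr (0.91 ± 0.19), a carbonic anhydrase and a chloride channel, went the other way, and both low protein arrays lay above all controls. Among 29 secreted epididymal proteins 14 lay below and 1 above (median -0.58), the list mean being 8.41 to 8.68 in controls and 8.31 and 7.67. Spink8, a protease inhibitor of the epididymis, read 11.51, 11.90 and 11.82 against 11.19 and 9.89 (-1.20 ± 0.35), while Wfdc15a lay above on both arrays (0.65 ± 0.16). On every sperm array the means of these 3 lists were above the array median. Their part in the germ cell differences was not tested. In such bulk samples fewer cells of a type and less RNA per cell cannot be told apart.

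Other cell types differed less. Of all genes, 22.4% lay below and 18.8% above the controls on both arrays. Of 23 fibroblast and matrix genes 10 lay below on both arrays and none above (median -0.23). Sparcl1, a matrix protein, differed by -0.55 ± 0.17. Leukocyte genes had a median of 0.24, with 3 of 21 above and 1 below. Aif1, a macrophage gene also expressed in testis, read 7.08, 6.76 and 6.94 in controls against 7.64 and 7.96 (0.88 ± 0.18), and Adgre1 differed by 0.54 ± 0.21. Lyz2, the macrophage lysozyme, read 8.68, 8.03 and 9.74 in controls and 9.53 and 9.51 in low protein sperm, so that control replicate 3 was the highest of the 5. The endothelial and Sertoli cell lists had medians of 0.03 and 0.01, with none of 10 and none of 7 above on both arrays, and 1 of each below. Of the erythroid list only Slc4a1 was tested (-0.14), and no Leydig cell gene passed the filter.

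Cholesterol is made from acetyl-CoA through mevalonate and squalene, by enzymes whose genes answer to the factor SREBP2 when sterols run low. The membrane cholesterol of sperm is lost as they become able to fertilize. Of 17 genes of the pathway tested (20 listed), 13 lay below all controls on both arrays and 1 above, against 22.4% and 18.8% of all genes. Medians were -0.39 on replicate 1 and -1.03 on replicate 2. None passed an adjusted p of 0.05 or 0.10 by limma. Promoter stretches are shown for the 4 of smallest p with an entry and a CCAAT match upstream of the start, since CCAAT is the site of NF-Y, a factor that acts beside SREBP. They are RefSeq sequences of build GRCm38.p6, read 5′ to 3′ along the gene, and capitals mark the CCAAT (or ATTGG, its reverse complement) nearest the gene start.
Mvd, chr8:122443423-122443509, minus strand: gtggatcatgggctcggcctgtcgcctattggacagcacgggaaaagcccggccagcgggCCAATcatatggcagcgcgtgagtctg
Hsd17b7, chr1:169969206-169969277, minus strand: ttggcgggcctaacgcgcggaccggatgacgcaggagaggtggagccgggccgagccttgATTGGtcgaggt
Cyp51, chr5:4104698-4104786, minus strand: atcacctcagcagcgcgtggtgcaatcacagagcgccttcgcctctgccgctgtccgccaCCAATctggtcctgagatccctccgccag
Idi1, chr13:8885532-8885605, plus strand: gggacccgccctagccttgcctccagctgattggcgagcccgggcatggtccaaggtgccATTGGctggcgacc

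These stretches end before the gene start, and the marked match lay 22 bases from it in Mvd, 7 in Hsd17b7, 24 in Cyp51 and 9 in Idi1. CCAAT on either strand was found in the promoter window, from 250 bases before to 50 after the start, of all 14 pathway genes with an entry, where a gene with several starts counted if any held it. It was in 41.5% of 10824 tested genes and in 37.4% of 32851 promoters. The share was 10 of 13 for fatty acid synthesis, 5 of 8 for sterol uptake and regulation, 13 of 44 for ribosomal proteins and 13 of 41 for the flagellum. TGACGT, part of the cAMP response element, was in 1 of the 14 pathway genes, against 12.3% of tested genes, and CACCCCA, part of a sterol response element, in 1, against 9.93%. All were searched on both strands. A match is a description of the letters and not of binding.

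Fdps, which makes farnesyl diphosphate, read 8.86, 9.19 and 9.34 in controls and 8.56 and 8.02 in low protein sperm (-0.84 ± 0.23, adjusted p = 0.111). Mvd, which makes the isoprene unit from mevalonate, read 7.97, 7.96 and 7.84 against 7.45 and 7.25 (-0.57 ± 0.16, adjusted p = 0.118). Sqle, the squalene epoxidase, read 7.79, 7.99 and 8.18 against 7.50 and 7.18 (-0.65 ± 0.19, adjusted p = 0.129). All 3 had both low protein arrays below every control, with replicate 1 from 0.29 to 0.40 under the lowest. Hsd17b7, a sterol ketoreductase, differed by -0.77 ± 0.23, and Cyp51 and Idi1, named for their promoters, by -0.84 and -1.08. Of genes named after their values were seen, Pmvk, an earlier step, lay above the controls on both arrays (0.20). Fdft1, which makes squalene, lay inside the control range on replicate 1 and below it on replicate 2.

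**Figure D5:**
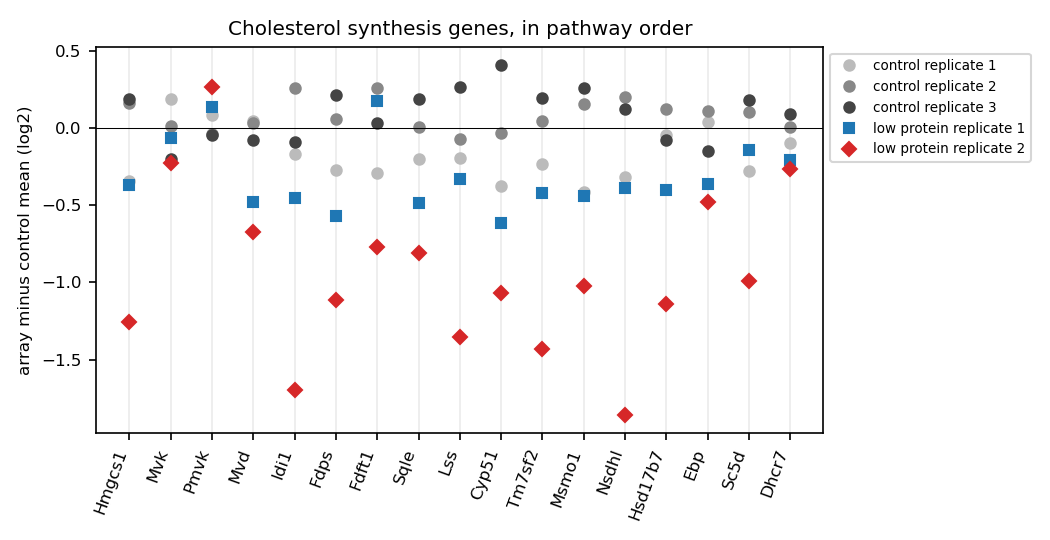
Difference from the control mean (log2, y axis) for 17 cholesterol synthesis genes in pathway order on the 3 control arrays (circles), low protein replicate 1 (square) and replicate 2 (diamond). Replicate 2 lies below all controls in 16 of the 17 genes and replicate 1 in 13, against 42.5% and 36.9% of all genes.

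Among 11 tested genes that sense or take up sterols, 3 lay below on both arrays (27.3%, against 22.4% of all genes). None lay above on both, against 18.8% of all genes, and 8 lay below on replicate 2, against 42.5%. Their median was -0.55, with -0.20 on replicate 1, where 7 of the 11 were inside the control range. The 3 were Scap (-0.65 ± 0.23), which escorts SREBP, Stard4 (-0.69 ± 0.25), a sterol carrier, and Srebf2 (-0.66 ± 0.25), which encodes SREBP2. Of 16 fatty acid synthesis genes 7 lay below and 2 above on both arrays (median -0.67). Scd2, a desaturase, read 9.59, 10.17 and 10.11 in controls and 9.07 and 7.82 in low protein sperm (-1.51 ± 0.36, adjusted p = 0.0880). Fasn, the fatty acid synthase, differed by -1.21 ± 0.34 and the desaturase Fads2 by -1.30 ± 0.40. Fasn lay 0.34 below its lowest control on replicate 1 and 1.60 below on replicate 2, and Fads2 0.20 and 1.66 below. Me1, the malic enzyme that supplies NADPH, stood above the controls on both arrays (0.89 ± 0.20). Epididymis also expresses these genes: the median cholesterol synthesis gene stood at 41.8% to 52.3% of its level in control epididymis on the control sperm arrays and at 36.4% and 27.1% on the low protein arrays, and 14 of the 17 were brighter in both epididymis samples than in all control sperm. The part of epididymal RNA in these differences was not tested. Between the 2 epididymis samples, 1 per diet and so with no test, the list's median difference was -0.14.

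Ppard, the lipid-sensing receptor PPAR delta, read 7.92, 8.24 and 7.92 in controls and 7.63 and 6.93 in low protein sperm (-0.75 ± 0.24, adjusted p = 0.141 by limma). Both low protein arrays were below the controls, replicate 1 by 0.28. Of 14 PPAR receptors and targets 5 lay below and 2 above on both arrays (median -0.13). These were 35.7% and 14.3%, against 22.4% and 18.8% of all genes. Ehhadh, of peroxisomal fat oxidation, differed by -0.48 ± 0.16, while Slc25a20, which carries acylcarnitine into mitochondria, differed by 0.60 ± 0.20 and Plin2, a lipid droplet coat protein, by 0.39 ± 0.17.

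A low protein diet limits amino acids, to which cells respond through the kinase GCN2 and the factor ATF4, and through insulin and mTOR. Of 34 genes of the amino acid response 12 lay below and 1 above on both arrays (35.3% and 2.94%, against 22.4% and 18.8% of all genes), and the other 21 did neither. The medians were -0.16 on replicate 1 and -0.46 on replicate 2. Slc38a2, an amino acid transporter, read 7.41, 7.82 and 8.11 in controls and 7.11 and 6.64 in low protein sperm (-0.91 ± 0.25, adjusted p = 0.111). Slc3a2, the heavy chain of amino acid transporters, differed by -0.78 ± 0.25, Shmt2, a mitochondrial serine enzyme, by -1.27 ± 0.45 and Wars, which charges tryptophan tRNA, by -1.04 ± 0.37. For Shmt2 the low protein arrays stood far apart, at 8.09 and 6.27, with controls from 8.31 to 8.55. Wars lay 0.08 below its lowest control on replicate 1 and 1.51 below on replicate 2. Of 25 insulin and mTOR genes 11 lay below and 1 above (median -0.37). Mlst8, an mTOR subunit, differed by -0.57 ± 0.18, Rheb, which activates mTOR, by -0.57 ± 0.20, and Igf1r, the IGF1 receptor, by -0.97 ± 0.36. Igf1r lay 0.08 below its lowest control on replicate 1 and 1.36 below on replicate 2. The median of this list was -0.20 on replicate 1 and -0.59 on replicate 2. Epididymis expresses both lists: 20 of the 34 and 14 of the 25 genes were brighter in both epididymis samples than in all control sperm. The median amino acid response gene stood at 71.2% to 80.9% of its level in control epididymis on the control sperm arrays and at 67.4% and 53.9% on the low protein arrays. For insulin and mTOR genes these were 74.7% to 87.3% and 69.0% and 49.8%. The part of epididymal RNA in these differences was not tested.

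Housekeeping groups separated the 2 low protein arrays. Of 55 ribosomal protein genes 44 lay below all controls on replicate 2, against 42.5% of all genes. On replicate 1, 3 lay below and 16 above, against 36.9% and 22.7% of all genes. The median of the 55 was 0.08 on replicate 1 and -0.91 on replicate 2. Rplp0, of the ribosomal stalk, read 11.57, 11.80 and 11.78 in controls and 11.63 and 10.41 in low protein sperm, so that replicate 1 was inside the control range and replicate 2 more than 1 below it. Rpl30 (-0.77 ± 0.23) was below on both arrays. Translation factors (29 tested), proteasome subunits (34) and heat shock chaperones (19) had medians between -0.07 and -0.02 on replicate 1 and of -0.80, -0.54 and -0.55 on replicate 2. For 70 respiratory chain genes the medians were -0.01 and -0.44. Over all genes, ordered by mean level into 5 bins of equal size, the median on replicate 2 was 0.12 in the dimmest bin and -0.27 in the brightest, against -0.10 and -0.04 on replicate 1. The part of this dependence on level in the housekeeping differences was not tested.

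Some members of these groups lay outside the control range on both arrays, though unequally. Eif4a1, the initiation helicase, differed by -0.85 ± 0.30, Hspa5, the chaperone of the endoplasmic reticulum, by -0.95 ± 0.30, and Ndufa1, of respiratory complex I, by -1.12 ± 0.35. In that order, replicate 1 lay 0.10, 0.11 and 0.23 below the lowest control, and replicate 2 lay 1.16, 1.02 and 1.46 below it. Psma6 and Psmc3, proteasome subunits, lay above on both (0.57 ± 0.19 and 0.43 ± 0.16), as did the chaperone gene Dnajb4 (0.58 ± 0.19). Immediate early genes, which answer stress of cells within minutes, had a median of 0.13. On both arrays none of 17 lay above and 1 below, against 18.8% and 22.4% of all genes. The 1 was Klf6, a zinc finger factor (-0.31 ± 0.17).

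Chromatin regulator lists were set against all genes, of which 22.4% were below and 18.8% above on both arrays. Smarcd3, which belongs to the SWI/SNF chromatin remodeller, read 10.25, 10.53 and 10.61 in controls and 10.22 and 8.05 in low protein sperm (-1.33 ± 0.53, adjusted p = 0.180 by limma). Replicate 1 was 0.03 below the lowest control and replicate 2 more than 2 below it. Of 22 SWI/SNF genes 6 lay below (27.3%) and 2 above (9.09%) on both arrays, with medians of -0.07 and -0.29. Of 14 DNA methylation genes 5 lay below (35.7%) and 3 above (21.4%). Mbd4, a repair enzyme at methylated sites, read 7.31, 6.96 and 6.97 against 7.56 and 8.16 (0.78 ± 0.22), and Uhrf2 read 8.03, 8.43 and 8.88 against 7.97 and 6.22 (-1.35 ± 0.47). Of 24 Polycomb genes, which keep genes silent, 7 lay below (29.2%) and 2 above (8.33%). Phc1 differed by 0.76 ± 0.20 with both arrays above, and Phc3 (-0.78 ± 0.23) and Rbbp7 (-0.96 ± 0.29) with both below. Among 17 imprinted genes, marked by parent of origin, none lay above and 2 below (11.8%) on both arrays (median -0.02). Impact, whose product restrains GCN2, differed by -1.14 ± 0.41. It lay 0.06 below its lowest control on replicate 1 and 1.62 below on replicate 2. Replicate 2 alone lay below for 16 of 22 SWI/SNF, 7 of 14 DNA methylation, 15 of 24 Polycomb and 4 of 17 imprinted genes. The share of all genes was 42.5%.

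Single arrays also stood out on their own. Among genes with replicate 1 inside the control range, the lowest on replicate 2 were Atp13a4, a transporter (-2.50), Jak2, a cytokine receptor kinase (-2.40), Ints6l (-2.24), Pwwp3b (-2.20), Nckap1, of actin assembly (-2.20), Ivns1abp (-2.16), Ogt, which adds sugar to nuclear proteins (-2.13), and Relch (-2.12). Jak2 read 8.31, 8.75 and 8.80 in controls and 8.44 and 6.22 in low protein sperm. The 2 probe sets of Ivns1abp disagreed, at -1.28 and 0.15 over both arrays. The highest on replicate 2 alone were Runx1t1 (1.24), Mov10l1, a piRNA helicase (1.19), Olfr1382, Vpreb1, Dusp10, Fbxo2, Hjv and Abcb1a, the last 6 by 1.01 to 1.18.

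Differences on replicate 1 alone were smaller. With replicate 2 inside the control range, the lowest on replicate 1 were Olfr984 (-0.73), Map3k13, Ang6, 9130019O22Rik, Ccdc115, Tspan11, Cish, a feedback inhibitor of cytokine signalling, and Vps18 (-0.64). The highest were Lyz2 (0.71), 1700073E17Rik, AF366264, Zfp558, Saa3, Prg4, Spata45 and H2bc22 (0.56). Lyz2, Saa3 and Prg4 were nonetheless inside the control range, which control replicate 3 widened: Prg4, a lubricating glycoprotein, read 5.85, 5.54 and 7.40 in controls and 6.88 and 6.80 in low protein sperm. The 6 genes that went furthest to opposite sides were Lipo3, Gcsh, of glycine cleavage, Ttc39c, Nop53, of ribosome assembly, Dlx1 and Rpl13. Rpl13, a ribosomal protein, read 11.02, 11.20 and 11.09 in controls, 11.22 on replicate 1 and 9.82 on replicate 2. Dlx1, a homeobox factor, went the other way, with 5.32 on replicate 1, 6.73 on replicate 2 and controls from 5.69 to 6.04.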

How the data were processed

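RNA was measured on Affymetrix arrays, 1 per sample, with replicates numbered in accession order. The deposited log2 values, 1 per probe set and array, were made by the authors with RMA, per the submitters' processing notes. No RMA version or genome build is given in the sources used here. RMA commonly gives arrays nearly one distribution, so total RNA per sperm is not visible. Array medians ran from 6.08 to 6.17. Of 33660 probe sets 21222 carried 1 gene by the platform annotation, 1541 several and 10897 none here. Names were updated through RefSeq tables (GRCm38.p6) for 21137, and 85 kept the platform's name. The probe set of highest mean stood for each of 19411 genes, and the lowest 30% by mean over 8 arrays (log2 5.69) were left out.

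The 6 sperm arrays were fitted with limma 3.58.1 in R 4.3.3 (lmFit, eBayes) with a mean per diet, two-sided, Benjamini-Hochberg adjusted over 13587 genes at 0.05. Errors are moderated standard errors, with a median of 0.19, and the number of arrays limits the precision. On simulated arrays of these genes, with independent normal noise, 82% of changes of 1 and 100% of changes of 2 were recovered. Both simulated low protein arrays carried the same change and no simulated array stood apart as low protein replicate 2 did. These shares therefore check the procedure and do not give the power of this comparison.

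The comparison, the gene lists and the pairs were chosen with earlier results of these data known. Genes named were the 12 of smallest p in each direction with no overlap between groups, up to 4 of smallest p per list, 8 each way per array alone with the other inside the control range, Actb, Myh11, Smarcd3 and Ppard, both members of each pair, and the 6 with the largest opposite deviations. Others are marked as named after their values were seen. Alternatives were 3 other normalizations, 2 other filters, averaging the probe sets of each gene, the 5 arrays alone, 3 other fits and leaving out each array.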

Additional observations from a re-analysis of the deposited data

How the results depend on the processing

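No gene passed an adjusted p of 0.05 by limma under any other normalization, filter, probe set choice or fit. Leaving out 1 array at a time gave 0 to 5155 genes. The 5155 (2042 higher, 3113 lower) came without low protein replicate 1, where replicate 2 stands alone and is assumed to vary like the controls. Genes with the low protein arrays above all controls numbered 2809 to 5400 with 1 array left out, and those below 3377 to 5777, since fewer arrays overlap less. With all arrays, more genes lay above than below after median centring (2759 and 2385), after cyclic loess (2937 and 2800) and without a filter (3617 and 3346). More lay below after quantile normalization (2835 and 2961), with the lowest 50% left out, with averaged probe sets and with the 5 arrays alone. The adjusted p of 0.10 was passed by 0 genes with the lowest 50% of genes left out, 283 after quantile normalization, 319 with an eBayes trend and 780 with array weights. Of 192 named genes 178 never changed direction, nor did 29 of 36 list medians. Aldoa stood at -0.02456 after quantile normalization and -0.02565 with array weights, and Rpl13 on replicate 1 at -0.007275 after cyclic loess. List medians near 0 changed sign: spermatogonia 0.03053, erythroid 0.2789 and imprinted genes 0.014 without a filter, erythroid 0.1131 and endothelium -0.02058 with the 5 arrays alone, and Sertoli cells -0.1074 with the lowest 50% left out.

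With 1 array left out, ranges crossed 0 for Ramp2 (-0.1025 to 0.6966), Flt1 (-0.09567 to 0.4654), Egfl7 (-0.1067 to 0.4444), Amh (-0.0036 to 0.6495), Inha (-0.0971 to 0.4502), Inhbb (-0.1409 to 0.3367), Jund (-0.8167 to 0.06403), Ldha (-0.0165 to 0.04125), Aldoa (-0.01105 to 0.1363), Cox7b (-1.095 to 0.006733), Cox8a (-1.021 to 0.03043), Rpl10 (-1.257 to 0.03837), Fscn1 (-0.03027 to 0.484) and Cetn2 (-0.475 to 0.0748). The same held for the medians of spermatogonia (-0.2441 to 0.1898), endothelium (-0.1536 to 0.1902), Sertoli cells (-0.1409 to 0.2141), ribosomal proteins (-0.9141 to 0.07607), immediate early genes (-0.05477 to 0.2993) and imprinted genes (-0.1405 to 0.1983). No paired analysis was possible because the labels give the samples letters and no shared replicate numbers.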

Other observations

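Of 84 microRNA gene entries tested, 3 lay above and 12 below all controls on both low protein arrays. The shares of all genes, for these and the next counts, were 18.8% above and 22.4% below. The microRNA entries had a median difference of -0.16 on replicate 1 and 0.21 on replicate 2. Of 29 small nucleolar RNA entries, which guide the modification of ribosomal RNA, none lay above and 11 below, with medians of -0.05 and -0.61. Of 45 olfactory receptor genes 3 lay above and 4 below.

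Of 12438 probe sets without a single named gene 6014 lay above the filter level. Both low protein arrays were above all controls in 752 of these (12.5%) and below in 1140 (18.96%). Both shares were under those of all genes, 18.8% above and 22.4% below. When each control was set against the mean of the other controls, 4, 6 and 14 genes stood at least 1 apart, against the 28 and 1869 of the low protein arrays.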
